A study of Mus musculus with 36 samples.

Results

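The comparison set 7 tumor-bearing submandibular glands taken at postnatal day 90 (P90) against 7 taken at postnatal day 40 (P40), the late and the early tumor stage of the study. Members were the Drop-seq libraries whose titles give the double-mutant genotype and 1 of these stages, and they made up 14 of the 26 Drop-seq glands of the series. Barcodes with at least 100 genes and under 15% of their unique molecular identifiers (UMIs, each standing for 1 captured RNA molecule) from mitochondrial genes were kept as cells, which left 12603 of the 23346 cells of all Drop-seq glands, 6361 at P40 and 6242 at P90. All 14 glands carried both genetic changes, beta-catenin GOF (a gain of function of the Wnt effector) and Bmpr1a LOF (a loss of a BMP receptor), in K14-Cre mice on a C57BL/6 background with the R26-EYFP reporter. Cre was driven by the keratin 14 promoter, which is active in basal epithelial cells, so the changes were directed to these cells and their descendants. The control glands quoted below came from K14-Cre mice with the reporter alone. Each stage had 3 glands labelled male and 4 labelled female, each gland was 1 library of sorted living cells, and the labels say only that the glands were separate samples.

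The submandibular gland makes saliva in acinar cells and modifies it in ducts, whose striated and granular parts secrete kallikreins and growth factors. Beta-catenin carries the canonical Wnt signal to the nucleus, where it switches on targets such as Axin2 and Nkd1, which in turn damp the pathway. BMP signals act through receptors such as Bmpr1a and induce the Id genes, and loss of this input together with constant Wnt activity gives squamous cell carcinomas in this gland. The comparison of the stages asks which cells and genes differ between young and older tumors.

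Some libraries and batches have to be named before the values. Kept UMIs ran from 650301 to 6512411 a gland at P40 and from 691944 to 3928909 at P90, and the median cell held 1570 UMIs at P40 and 766.5 at P90. Batches B11, B12 and B13 held 6 P40 and 3 P90 glands, whereas the other 4 P90 glands (B6, B8 and B9) and 1 P40 gland (B14) were processed in batches of 1 stage, and for these 5 glands a difference of stage cannot be told apart from one of batch. Values within B11 to B13 are given beside the main results (within batches). The gene fits within batches had a term for batch and none for sex. The library labelled male P40 replicate 1 held 591 Xist UMIs and 1 UMI of Y-linked genes, and the library labelled female P90 replicate 5 held 0 Xist and 194 Y-linked UMIs, so both go against their sex label. P90 replicate 5 was also the only P90 gland of batch B11. Both libraries lie in the same batch at opposite stages, so an exchange of these libraries would also have exchanged their stages. Whether this happened was not tested; both entered the comparison as labelled, and the main results are also given without them. P90 replicate 4 had the highest share of ribosomal protein transcripts (8.71%) and of clone-named genes (8.37%). Only 6 of 12597 barcodes occurred in more than 1 library.

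No gene passed the threshold between the stages over whole glands. UMIs were summed per gland and tested with edgeR's quasi-likelihood test with sex as covariate, and 0 of 9857 genes (0%) had an adjusted p under 0.05. At an unadjusted p under 0.05 were 586 genes (5.95%), 414 higher at P90 (4.2%) and 172 lower (1.74%), and DESeq2 called 3 genes. Within batches B11 to B13, with batch as a term, 0 of 12227 genes (0%) passed and 326 had an unadjusted p under 0.05. A fit of batches B12 and B13 alone was added after the data were seen. There 0 of 11845 genes passed and 113 had an unadjusted p under 0.05. No gene had all 7 P90 glands above all 7 P40 glands (0%), and 2 genes, D630039A03Rik and RP24-89H23.2, had all P90 glands below all P40 glands (0.0203%). RP24-89H23.2, a clone-named gene, had the smallest adjusted p (0.426), and D630039A03Rik had a log2 fold change of -1.36 with an adjusted p of 0.832. A test of whether the stage difference itself differed between the sexes gave 0 of 11342 genes, with 158 at an unadjusted p under 0.05 and a smallest adjusted p of 0.9996 in edgeR.

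The profiles of the stages overlapped. On the first principal component of the gland profiles, which held 37.2% of the variance, P40 glands ran from -62.7 to 53.5 and P90 glands from -58.6 to 56.9. The Spearman correlation of 2 glands, a description over genes that share a library, had a median of 0.836 among the 21 pairs of P40 glands, 0.749 among the 21 pairs of P90 glands and 0.768 across stages.

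The genes nearest to the threshold are described next, since a p that misses it does not show that levels were equal. All levels are CPM, a gene's UMIs scaled to the total UMIs of its gland, whereas fold changes are log2 values of P90 over P40 from edgeR, which scales each library by TMM, and all had an adjusted p of 0.832 unless another is given. Cxcl13, a chemokine that attracts B cells, was at 0 CPM in 5 P40 glands and at 0.783 and 2.62 CPM in replicates 6 and 4, and ran from 0 over a median of 7.78 to 14.8 CPM at P90. It was found in 6 of 7 P90 glands, with 100 UMIs against 12 at P40 and 3 and 0 UMIs in control glands of P40 and P90. Its log2 fold change was 3.53 ± 0.90 (SE) and 3.0 within batches. Clic6, a chloride intracellular channel protein, ran from 0.876 over 2.70 to 4.61 CPM at P40 and from 1.53 over 11.4 to 20.2 CPM at P90 (log2 fold change 1.71 ± 0.36, 1.32 within batches). All P90 glands except replicate 7 lay above every P40 gland for Clic6, and DESeq2 called it.

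Of the other genes with the smallest p among those higher at P90, some kept their fold change within batches and some did not. Mir692-1 and Hist1h2al, a histone gene, had log2 fold changes of 3.47 and 2.48 over all glands but 1.04 and 0.06 within batches. Control P90 glands, all from batches without P40 glands, also had high medians of 53.1 CPM for Mir692-1 and 25.3 CPM for Hist1h2al, against 1.94 and 1.83 CPM in control P40 glands. Fbxw4, an F-box protein, had a log2 fold change of 1.53 ± 0.36 (1.91 within batches) and Nsmce4a, a subunit of the SMC5/6 DNA repair complex, one of 1.25 ± 0.30 (1.13 within batches). Ass1, the argininosuccinate synthase of arginine synthesis, ran from 4.82 over 9.01 to 20.7 CPM at P40 and from 11.5 over 26.0 to 34.9 CPM at P90 (log2 fold change 1.02 ± 0.26, 0.62 within batches). For Ing2, Cirbp, a cold-inducible RNA-binding protein, and Phtf1 the log2 fold changes were 1.09, 1.15 and 1.1, and within batches 0.90, 0.45 and 0.68.

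The genes with the smallest p among those lower at P90 are given next. Cnn1, the calponin of smooth muscle and myoepithelial cells, ran from 4.70 over 8.11 to 44.9 CPM at P40 and from 0 over 2.28 to 13.01 CPM at P90 (log2 fold change -2.14 ± 0.66, -2.63 within batches). Beside it, the summed level of the 7 myoepithelial markers ran from 103 to 858 CPM at P40 and from 3.05 to 327 CPM at P90, so fewer cells of a type and less RNA per cell cannot be told apart in these sums. Pdlim3, a PDZ and LIM domain protein of the contractile apparatus, had a log2 fold change of -1.34 ± 0.33 (-1.07 within batches). Cox7a1, a cytochrome c oxidase subunit of muscle and other oxidative tissues, ran from 16.2 over 27.6 to 110 CPM at P40 and from 1.25 over 12.5 to 19.1 CPM at P90, and its log2 fold change was -1.97 ± 0.51 (-1.5 within batches). Cox7a1 is also among the leading genes of the striated and granular duct-like cells described below. The zinc-finger gene Zfp949 had one of -1.48 ± 0.32, and Zfp664, Cyth3, Phldb2, Ppap2a, Armc1 and Trmt10a lay between -1.09 and -0.68. The stages overlapped for each of these lower genes.

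**Figure D1:**
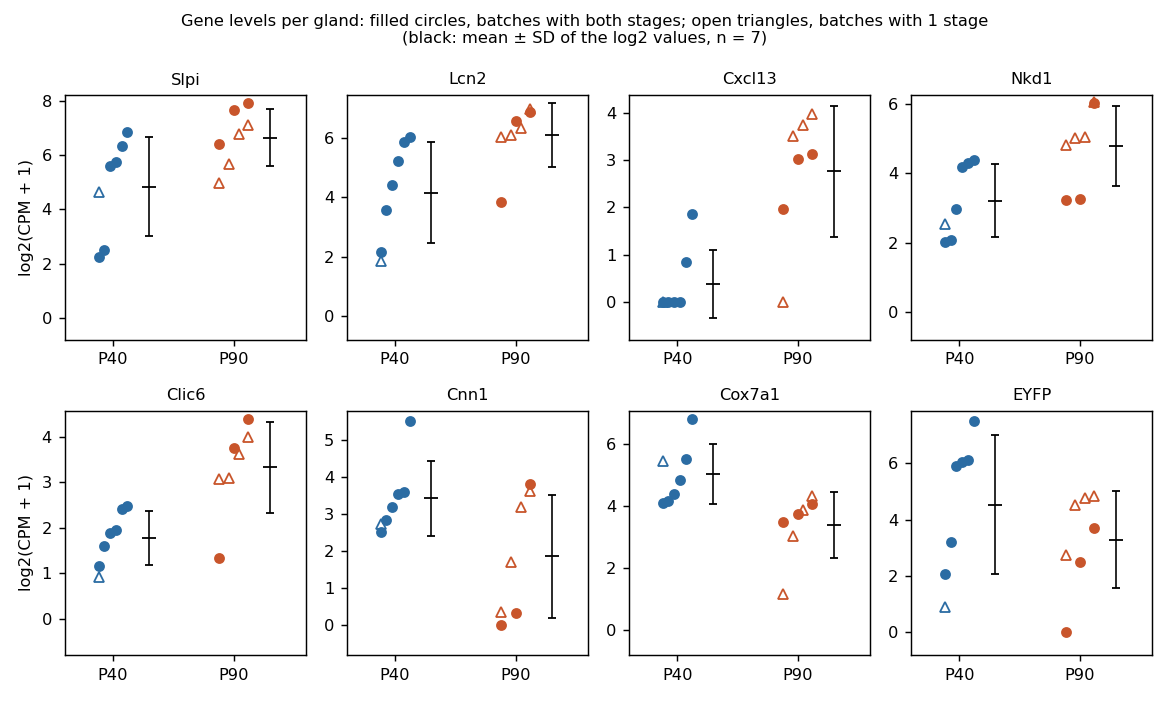
Levels of 8 genes in each gland as log2(CPM + 1), P40 in blue and P90 in orange, with the mean and SD of 7 glands in black; filled circles are glands of batches with both stages and open triangles glands of batches with 1 stage. Cxcl13 was at 0 in 5 P40 glands and 1 P90 gland, and the stages overlapped in every panel.

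The targeted genes and the reporter did not separate the stages. Ctnnb1, which encodes beta-catenin, had medians of 99.2 CPM at P40 and 121 CPM at P90, and Bmpr1a had medians of 22.1 and 21.8 CPM, beside 13.3 and 19.9 CPM in control glands of the same stages. Whole-gland tags near the 3' end need not cover the deleted part and come from mutant and other cells alike, so they do not check the genotype. EYFP, which marks descendants of cells with Cre activity, ran from 0.876 over 58.4 to 179 CPM at P40 and from 0 over 11.96 to 27.4 CPM at P90 (log2 fold change -1.81 ± 0.87, adjusted p = 0.847, -2.24 within batches). All 7 P90 glands lay below the P40 median, and control medians were 64.6 and 74.7 CPM. These values rest on 2 to 440 EYFP UMIs a gland at P40 and 0 to 78 at P90. Control P40 replicate 5 held 0 EYFP UMIs among 6316913 kept UMIs, though control mice carried the reporter, and it entered the control median. The paper states that its method captured too little EYFP mRNA to pick out EYFP-positive cells. Cre gave 46 UMIs in all P40 and 31 in all P90 glands, too few to be tested.

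Most Wnt targets and feedback inhibitors had positive fold changes, but none passed. Of 22 genes 13 were tested, 10 with a positive and 3 with a negative fold change, with a median log2 fold change of 0.18 beside 0.02 over all genes tested. The median was 0.48 within batches and 0.02 without both libraries that go against their sex label. Nkd1, an inhibitor of Wnt signaling at Dishevelled, was the only member with an unadjusted p under 0.05. It ran from 3.07 over 6.76 to 19.9 CPM at P40 and from 8.40 over 31.4 to 64.8 CPM at P90 (log2 fold change 1.5 ± 0.46, 1.02 within batches), with all 7 P90 glands above the P40 median. Control medians were 0.105 and 1.27 CPM. Axin2, a scaffold of the beta-catenin destruction complex, ran from 1.69 over 4.38 to 40 CPM at P40 and from 5.60 over 18.2 to 79.5 CPM at P90 (log2 fold change 1.05 ± 0.54, adjusted p = 0.859). Dkk4, a secreted Wnt inhibitor, had a log2 fold change of 1.5 ± 0.88. Wif1, another secreted inhibitor, spread from 0.768 to 266 CPM at P40 and from 0.254 to 283 CPM at P90 (log2 fold change 0.18 ± 0.90), and the cyclin gene Ccnd1 had one of -0.31 ± 0.32.

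BMP genes and stemness genes gave no call either. Of 12 BMP ligands, receptors and response genes tested, 9 had a positive fold change (median 0.17, -0.02 within batches). The ligand Bmp2 had a log2 fold change of 1.06 ± 0.68, and the response genes Id1, Id2, Id3 and Smad7 lay between -0.03 and 0.30. Of 6 stemness genes, Bmi1, a Polycomb repressor, had an unadjusted p under 0.05, with 8.32 CPM as the P40 and 15 CPM as the P90 median (log2 fold change 0.45 ± 0.21, adjusted p = 0.837). The chemokine receptor Cxcr4 had a log2 fold change of 1.15 ± 0.70, and 0.46 without both libraries that go against their sex label.

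Antimicrobial genes had positive fold changes throughout, though none was called. All 8 tested members had a positive fold change, and the median was 1.44 (1.20 within batches, with 7 of 8 positive, and 1.21 without both libraries). Their summed level over the 13 members in the tables ran from 442 over 718 to 1157 CPM at P40 and from 700 over 1377 to 3499 CPM at P90, so the ranges overlapped. Markers of other cells moved beside this list. The medians at P40 and P90 were 1.35 and 39.8 CPM for 6 neutrophil markers (0 to 102 and 3.08 to 104), 3472 and 6055 CPM for 8 plasma cell markers (941 to 10730 and 1028 to 17020), and 12570 and 18870 CPM for 7 luminal Clu markers (6554 to 23600 and 3210 to 35480). Their part was not tested. Slpi, a secreted inhibitor of leukocyte proteases, ran from 3.78 over 47.3 to 113 CPM at P40 and from 30 over 108 to 240 CPM at P90 (log2 fold change 1.51 ± 0.63, 2.46 within batches). Lcn2, a siderophore-binding lipocalin, ran from 2.63 over 20.4 to 65.6 CPM at P40 and from 13.2 over 79.7 to 126 CPM at P90 (1.38 ± 0.52). Lyz1, a lysozyme, and Saa3, an acute-phase protein, had log2 fold changes of 1.55 ± 0.53 and 2.57 ± 0.85. These 4 genes had an unadjusted p under 0.05, while Pigr, which carries IgA across the epithelium, had a log2 fold change of 0.39 ± 0.52. Ltf, the iron-binding lactoferrin, spread from 0 to 297 CPM at P40 and from 0.254 to 1179 CPM at P90 (1.5 ± 1.16).

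Over whole glands, myeloid lists leaned the same way with smaller differences. The tissue-remodeling macrophage list had 9 of 11 positive fold changes (median 0.59, 0.64 within batches, 0.37 without both libraries) and the inflammatory list 9 of 11 (0.42, 0.23 and 0.14). Trem2, a lipid receptor of macrophages, ran from 2.70 over 5.84 to 43.1 CPM at P40 and from 6.11 over 28.3 to 62.1 CPM at P90 (log2 fold change 1.01 ± 0.43), and was the only one of both lists with an unadjusted p under 0.05. Spp1, the secreted phosphoprotein osteopontin, had a log2 fold change of 0.84 ± 0.88 over all glands, 2.49 within batches and -0.03 without both libraries that go against their sex label, so its direction rested on which libraries were used. The summed level of 11 macrophage and monocyte markers moved beside these genes, from 382 over 581 to 3252 CPM at P40 and from 471 over 1723 to 4012 CPM at P90; its part in them was not tested. MHC class II genes, which present antigens, had 6 of 6 positive fold changes with a median of 0.22 (-0.01 without both libraries), MHC class I genes 6 of 11 with a median that rounds to 0, and interferon-stimulated genes 9 of 14 (median 0.08).

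Nuclear genes of oxidative phosphorylation had lower fold changes throughout. All 18 members had a negative log2 fold change, from -0.68 to -0.26 with a median of -0.47, and all 18 were negative within batches (median -0.73). Without both libraries that go against their sex label 17 of 18 were negative, with a median of -0.22. None had an unadjusted p under 0.05, and the smallest adjusted p was 0.859. The summed level ran from 3863 over 5434 to 8984 CPM at P40 and from 3201 over 3932 to 5776 CPM at P90. Uqcrb, a subunit of complex III, had the lowest value (-0.68 ± 0.38), and Cox4i1 and Cox6c of complex IV had -0.43 ± 0.32 and -0.55 ± 0.31. Beside these genes, the summed level of 11 striated and granular duct markers, a cell type rich in mitochondria, ran from 4401 to 28830 CPM at P40 and from 863 to 22370 CPM at P90; its part was not tested.

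Secretory products of the ducts had mostly negative fold changes and those of acini no common direction. Of 21 duct secretory genes 20 had a negative fold change (median -0.88, -0.94 within batches, -0.88 without both libraries). Smgc, a mucin-like product of intercalated duct cells, ran from 188 over 5438 to 12300 CPM at P40 and from 2.24 over 316 to 7027 CPM at P90. Its log2 fold change was -2.98 ± 1.28, -6.28 within batches and -1.71 without both libraries. The paper reports strongly sex-dependent numbers of Smgc-expressing cells in control glands, and the fit within batches had no sex term. In P40 glands with more Xist than Y-linked UMIs, the summed intercalated duct markers were at 12370, 10160, 5502, 4483 and 9281 CPM. The other P40 glands had 259 and 2113 CPM. At P90 these markers were at 7125, 4002 and 51.7 CPM in the former and 52.7, 414, 319 and 399 CPM in the latter. The part of sex was not tested. The kallikrein Klk1 had a log2 fold change of -1.04 ± 0.81 (adjusted p = 0.901). Among 11 acinar secretory genes 7 were negative (median -0.06), and Bpifa2, a BPI-fold protein of saliva, spread from 23.1 over 5120 to 7554 CPM at P40 and from 48.8 over 399 to 4351 CPM at P90 (-2.49 ± 1.0).

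Structural and growth programs gave medians near 0 or small. Collagens had 7 of 11 negative fold changes (median -0.48), and genes of epithelial-mesenchymal transition (EMT) and matrix 7 of 18 (median 0.27, -0.12 within batches). Sparc, a collagen-binding matrix protein, was the member with an unadjusted p under 0.05 (log2 fold change -0.95 ± 0.44, adjusted p = 0.837). Squamous differentiation genes had a median of -0.12 over 7 tested genes, with Krtdap, a keratinocyte protein with an unadjusted p under 0.05, at 2.04 ± 0.80 and the stress keratin Krt6a at 0.52 ± 0.87. Luminal keratins and luminal tumor markers (16 genes, median -0.06), the unfolded protein response (13, -0.05), imprinted growth genes (7, 0.09), immediate early and heat shock genes (15, 0.0025) and glycolysis and hypoxia genes (16, -0.10) gave no call. Jund, an AP-1 subunit, and Hk2, a hexokinase, were the members of the latter lists with an unadjusted p under 0.05, with log2 fold changes of 1.31 ± 0.44 and 1.02 ± 0.35. Ddx3y and Uty, Y-linked genes of the sex check, also had one, beside the pair of libraries that go against their sex label.

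**Figure D2:**
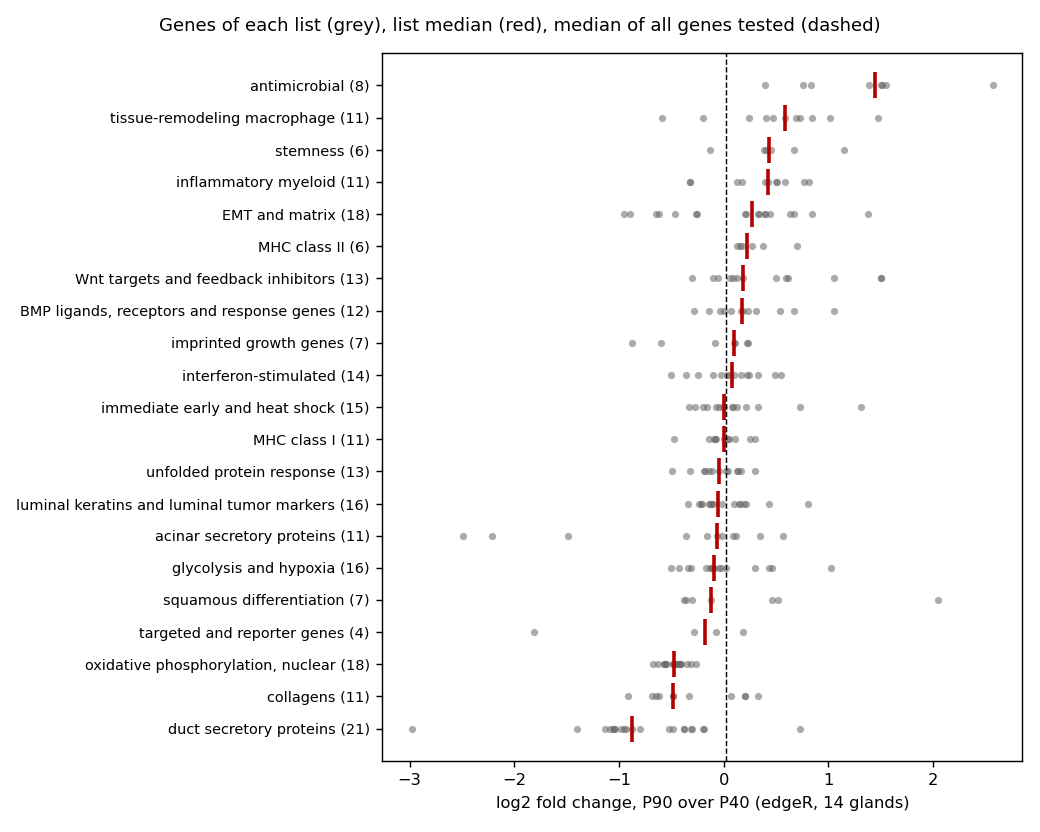
Log2 fold changes of P90 over P40 from edgeR over 14 glands for each tested gene of 21 lists (grey; number tested in brackets), with the list median in red and the median of all genes tested (0.02) as a dashed line. The antimicrobial genes (median 1.44) lie to the right of the line and the oxidative phosphorylation (-0.47) and duct secretory genes (-0.88) mostly to the left, while no gene passed the threshold.

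To ask which cells made up the glands, the 12603 cells were clustered and gave 19 clusters, of which 12 could be named by marker genes and formed 11 classes. The other 7 clusters are called by their leading genes. Shares of cells per gland were compared with a two-sided exact permutation test over 3432 arrangements, and 0 of 18 classes passed after adjustment. A binomial mixed model with sex as covariate called none either (smallest adjusted p = 0.273).

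Macrophage and monocyte-like cells, named by 11 markers such as Csf1r and C1qa, made up 6.19 over a median of 7.39 to 25.8% of cells at P40 and 7.79 over 21.5 to 31.6% at P90. The means were 11.9% ± 8.29 and 19.8% ± 8.22 (SD, n = 7; exact permutation p = 0.107, adjusted p = 0.72). Of the P40 glands 5 lay below 9% and 2, replicates 2 and 5, at 22.0 and 25.8%, and the difference of 7.86 percentage points was 9.11 within batches and 4.93 without both libraries that go against their sex label. Macrophage-, T and NK- and plasma cell-like cells together ran from 7.64 to 33.0% at P40 and from 12.4 to 38.2% at P90.

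Luminal Dcpp-like cells, which express the secreted demilune proteins Dcpp1, Dcpp2 and Dcpp3, had the smallest p. They made up 0 over 7.79 to 12.5% at P40 and 0.0937 over 2.32 to 9.61% at P90, with means of 6.88% ± 5.21 and 2.63% ± 3.34 (exact permutation p = 0.095, adjusted p = 0.72; -3.03 percentage points within batches). Acinar-like cells had the same mean of 10.8% at both stages and spread from 0.842 to 35.3% at P40 and from 0.662 to 41.9% at P90. The separate cluster led by Mucl1, Scgb2b3 and Scgb1b21 made up 7.50% ± 4.44 and 4.46% ± 2.345 (exact permutation p = 0.127, adjusted p = 0.72). At a coarser clustering resolution of 0.6, Mucl1 and Scgb2b3 were among the top genes of the acinar-like cluster. That cluster held 1495 P40 and 1025 P90 cells, against 739 and 607 acinar-like cells in the main clustering. Striated and granular duct-like cells had means of 11.7% ± 8.98 and 7.72% ± 6.83. Endothelial-like cells made up 6.65% ± 4.24 and 4.88% ± 2.36, and fibroblast-like cells 2.48% ± 1.16 and 2.84% ± 1.77. Plasma cell-like cells were 1.49% ± 1.45 at P90 against 0.999% ± 0.557 at P40, and within batches they reached the smallest p that 24 arrangements allow (exact permutation p = 0.0417, adjusted p = 0.75). The cluster led by the small RNAs n-R5-8s1 and Snord118 made up 3.80% ± 4.47 and 6.47% ± 3.33 of cells.

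**Figure D3:**
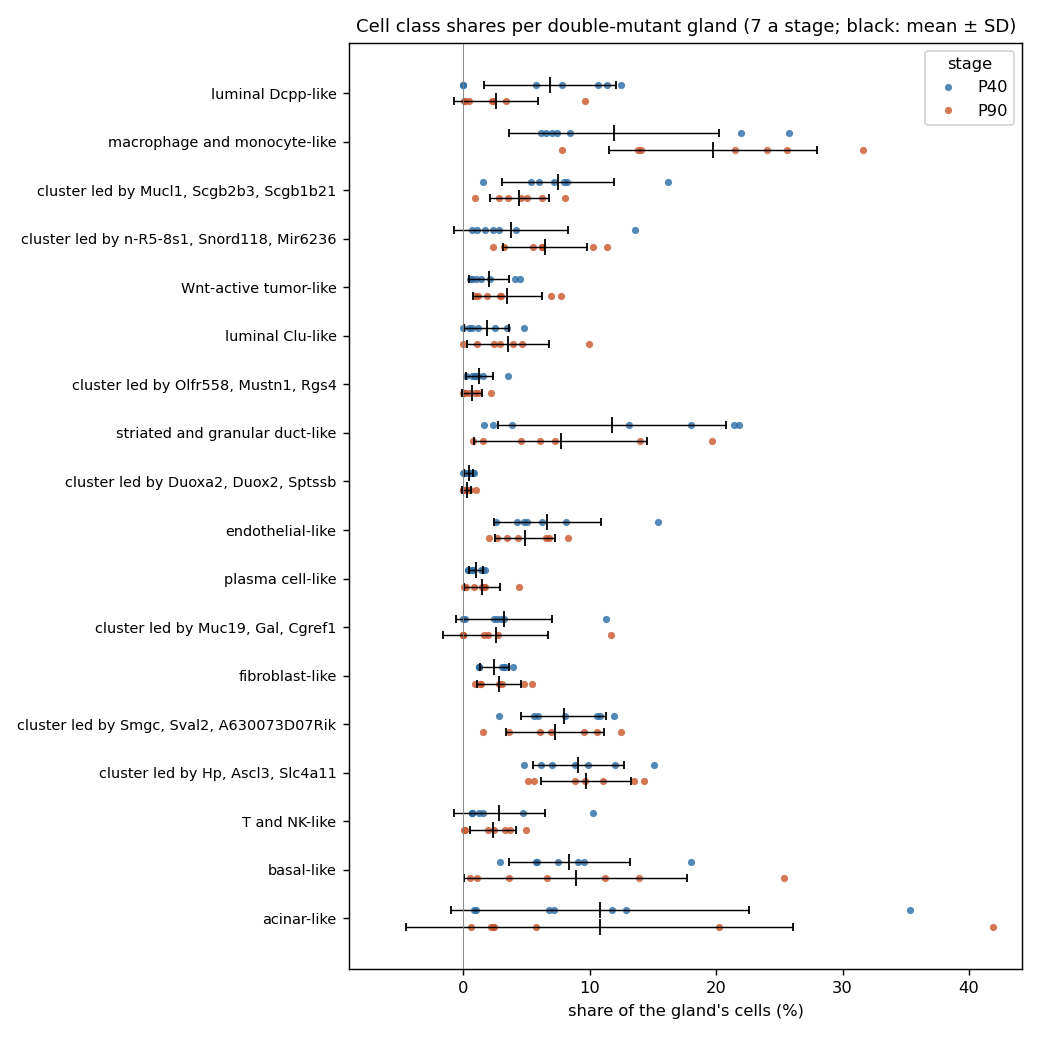
Share of each cell class among the cells of each gland in percent, P40 in blue and P90 in orange, 7 glands a stage, with the mean and SD in black. Macrophage and monocyte-like cells had the largest difference of means (11.9 against 19.8%), and in every class the stages overlapped.

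The basal-, Wnt-active tumor- and luminal Clu-like classes were also compared among themselves, a choice made after the shares had been seen. Basal-like cells carry keratins 5 and 14, which normal basal cells carry too, so the class does not separate normal from tumor cells. The summed basal markers ran from 11.3 to 228 CPM in control P90 glands and from 11.5 over 162 to 676 CPM in double-mutant P90 glands. At P40 they ran from 2.85 to 111 CPM in control glands and from 44.7 over 156 to 703 CPM in double-mutant glands. Wnt-active tumor-like cells carry Axin2, Wif1, Nkd1, Dkk4, Notum and Ptn. Luminal Clu-like cells carry Clu, Krt8, Krt18 and Wfdc18, as does the separate Hp, Ascl3 and Slc4a11 cluster, which stayed outside the 3 classes. Together these 3 classes made up 3.43 over 11.7 to 22.7% of cells at P40 and 1.76 over 13.5 to 43.0% at P90, from 33 to 183 cells a gland at P40 and from 12 to 368 at P90. Of their cells, basal-like cells made up 44.8 over 77.7 to 84.9% at P40 and 33.3 over 48.8 to 70.4% at P90. The means were 71.9% ± 15.4 and 48.8% ± 12.9 (SD, n = 7), a difference of -23.1 percentage points (exact permutation p = 0.014, adjusted over the 3 classes 0.042). Within batches it was -26.7 percentage points (exact permutation p = 0.0417, the smallest that 24 arrangements allow; adjusted p = 0.0625). The sign was negative under every alternative run, but the adjusted p rose to 0.117 without both libraries that go against their sex label, to 0.149 without the 3 glands that had under 50 such cells (-15.2 percentage points), and to 0.558 at the coarser clustering resolution of 0.6 (-9.02). The adjusted p also rose above 0.05 when any 1 of P40 replicates 1, 2, 3, 4 and 7 or P90 replicates 1, 2, 5 and 6 was left out (0.0507 to 0.0822). With any 1 gland left out the difference stayed between -27.6 and -20.5 percentage points.

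The other 2 classes had higher mean shares at P90, and neither passed after adjustment over all glands. Wnt-active tumor-like cells made up 15.8% ± 6.80 of the 3 classes at P40 and 29.3% ± 17.4 at P90 (exact permutation p = 0.0373, adjusted p = 0.0559), but the mean at P90 included replicate 7 with 66.7% of only 12 cells. The difference was 13.5 percentage points with it, 7.24 without it and 23.4 within batches (exact permutation p = 0.0417, adjusted p = 0.0625). It passed without P40 replicate 5 or 6 or P90 replicate 3 or 4 (adjusted p of 0.049, 0.0323, 0.0219 and 0.0367). Luminal Clu-like cells made up 12.3% ± 9.36 and 21.9% ± 11.9 (exact permutation p = 0.12 before and after adjustment, and an adjusted p of 0.042 without P90 replicate 7), and within batches the difference of 9.63 percentage points was 3.38 (exact permutation p = 0.875). With cells thinned to 500 UMIs before clustering, which left out 554 P40 and 2070 P90 cells below that depth, the difference was -28.6 percentage points for basal-like cells, 24.8 for luminal Clu-like cells (adjusted p = 0.0157) and 3.82 for Wnt-active tumor-like cells. These are not the same cells: the cluster named luminal Clu-like held 745 cells after thinning and 1701 at resolution 0.6, against 343 in the main clustering, and Hp, Edn1 and Anxa1, leading genes of the separate Hp, Ascl3 and Slc4a11 cluster, were among its top genes in both. At resolution 1.5, where the basal-like difference was -21.0 percentage points (adjusted p = 0.0717), a cluster of myoepithelial-like cells led by Cnn1, Pcp4 and Acta2 stood apart with 51 P40 cells and 1 P90 cell. As shares of all cells, basal-like cells made up 8.40% ± 4.81 and 8.92% ± 8.79, Wnt-active tumor-like cells 2.05% ± 1.62 and 3.51% ± 2.73, and luminal Clu-like cells 1.88% ± 1.77 and 3.57% ± 3.22.

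**Figure D4:**
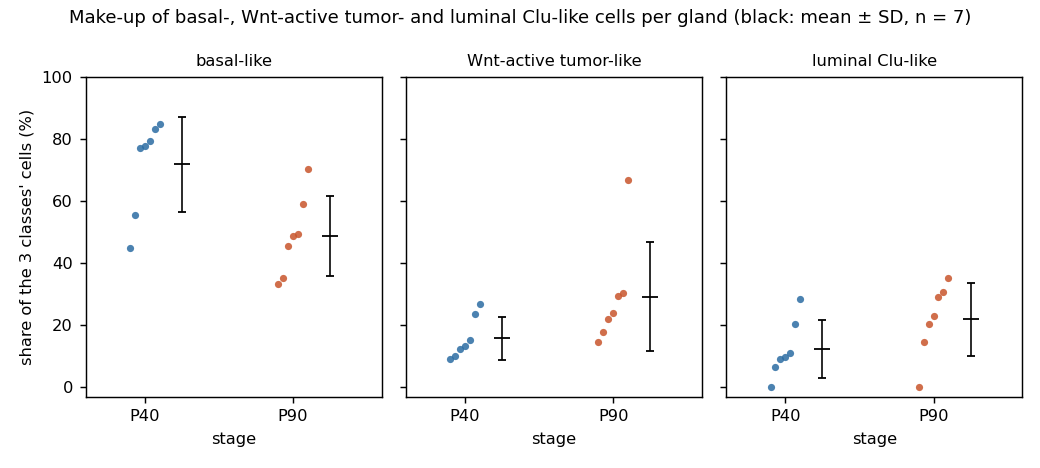
Share of basal-, Wnt-active tumor- and luminal Clu-like cells among the cells of these 3 classes in each gland in percent, with the mean and SD of 7 glands in black. Basal-like cells made up at least 77.3% in 5 of 7 P40 glands and at most 70.4% in every P90 gland.

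Gene levels were then compared within each class, over the UMIs summed per gland and class, for the 15 classes with at least 10 cells in at least 4 glands of each stage. In all, edgeR made 38 calls of 33 distinct genes, 28 of the calls in luminal Dcpp-like cells, and 5 genes were called there and in the cluster led by Muc19. There 28 of 1930 genes passed (1.45%), 17 higher and 11 lower at P90, in 5 P40 glands (41 to 136 cells) and 4 P90 glands (17 to 106 cells). Depth differed beside it: the median cell of these glands held 3506.5 to 5844 UMIs at P40 and 623 to 2977 at P90, and its part in the calls was not tested.

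The 11 genes lower at P90 in luminal Dcpp-like cells were Nucb2, Slc25a5, Gde1, Fkbp11, Copz2, Cope, Spcs2, Sdhb, Lpo, Rps27l and Nans. Nucb2, a calcium-binding protein of the Golgi, was at 216, 446, 347, 241 and 241 CPM in the 5 P40 glands and at 95.3, 151, 41.7 and 208 CPM in the 4 P90 glands. The 2 groups did not overlap (log2 fold change -1.80 ± 0.41, adjusted p = 0.0247), though 41.7 CPM stood for a single UMI. Fkbp11, a folding enzyme of the endoplasmic reticulum, Spcs2, a subunit of signal peptidase, and Cope and Copz2, subunits of the COPI coat, fell by 1.71, 1.48, 1.57 and 2.19 on the log2 scale. Copz2 was at 15.9, 15.1 and 0 CPM in P90 replicates 3, 4 and 5, where 1 UMI stood for 15.9, 15.1 and 41.7 CPM. Lpo, the lactoperoxidase of saliva, was at 38.7, 76.9, 38.4, 38.3 and 31.1 CPM at P40 and at 15.9, 15.1, 0 and 18.6 CPM at P90 (log2 fold change -2.24 ± 0.58, adjusted p = 0.0456). At P90 replicates 3, 4 and 5 these were 1, 1 and 0 UMIs. Lpo is a leading gene of acinar-like cells, and beside it acinar secretory genes had 9 of 10 negative fold changes in luminal Dcpp-like cells (median -0.73, 1 called). The medians were -1.54, -1.61 and -1.77 in T and NK-, fibroblast- and duct-like cells, with 0 called there. They were positive in luminal Clu-like cells (1.03), the Hp, Ascl3 and Slc4a11 cluster (0.51), endothelial-like cells (0.13) and the Mucl1 cluster (0.01). In the remaining classes fitted they lay between -1.54 and -0.13.

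Slc25a5, the ADP/ATP carrier of the inner membrane, was at 177, 275, 209, 179 and 201 CPM at P40 and at 95.3, 151, 83.3 and 74.4 CPM at P90 (log2 fold change -1.68 ± 0.39, adjusted p = 0.026, -2.52 within batches). Sdhb, a subunit of complex II and a member of the oxidative phosphorylation list, fell by 1.99 ± 0.50 (edgeR, adjusted p = 0.0409). Its 15.9 and 41.7 CPM in P90 replicates 3 and 5 each stood for a single UMI. Of the 18 list members 17 had a negative fold change in these cells. The glycerophosphodiester phosphodiesterase Gde1 fell by 1.81 ± 0.42, and Rps27l and Nans, the sialic acid synthase, fell by 1.46 and 1.5. Without both libraries that go against their sex label (1 of them in this fit) 16 genes passed, all higher at P90, and 10 of the 28 kept their call, none of them a lower gene. Leaving out P40 replicate 4, 6 or 7 left 9, 12 or 10 calls, leaving out P90 replicate 3 or 5 left 16, and a fit without sex left 5. Within batches 30 genes passed, of which 9 were among the 28, and of the 11 lower genes Slc25a5 alone passed there (adjusted p = 0.048).

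The genes higher at P90 in luminal Dcpp-like cells were mostly predicted genes and small RNAs. Gm13340 was at 0, 5.13, 4.61, 0 and 18.7 CPM at P40 and at 79.4, 317, 125 and 119 CPM at P90 (log2 fold change 4.14 ± 0.60, adjusted p = 0.000293). Gm13341 and Gm10076 rose by 3.19 ± 0.48 and 2.43 ± 0.47. The ribosomal n-R5-8s1, the small nucleolar Snord13 and the 7SK RNA Rn7sk rose by 3.76, 2.70 and 2.24. n-R5-8s1 was at 0, 15.1, 500 and 152 CPM in the P90 glands, highest in replicate 5, which goes against its sex label, and was not fitted without it. Rn7sk had 15.9 CPM in P90 replicate 3, within the range of the P40 glands, and was highest in P90 replicate 5 with 458 CPM. In edgeR it lost its call without replicate 5 (adjusted p = 0.118). Jund rose by 2.12 ± 0.42 (adjusted p = 0.00883), from 38.7 to 68.5 CPM over the P40 glands to 90.5 to 1000.0 CPM over the P90 glands, highest in replicate 5, and it lost its call without that library (adjusted p = 0.0854). Id3, a target of BMP signaling, passed as well (2.64 ± 0.64, adjusted p = 0.0347), but its 377 CPM in P90 replicate 4 stood beside 47.6, 0 and 11.2 CPM in the other P90 glands.

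In the cluster led by Muc19, a mucin gene, and Gal, 8 of 1175 genes passed (0.681%), 7 higher at P90. Gm13340 and Gm13341 rose by 4.57 ± 0.57 and 3.20 ± 0.47, and Jund rose by 2.53 ± 0.48 (adjusted p = 0.0184). Jund was at 361, 212, 230, 257 and 351 CPM at P40 and at 1643, 163, 2311 and 1343 CPM at P90, with replicate 4 below every P40 gland. Edf1, a transcriptional coactivator, was at 505, 546, 671, 553 and 479 CPM at P40 and at 78.2, 245, 70.04 and 109 CPM at P90 (log2 fold change -2.05 ± 0.40, adjusted p = 0.0184). The 2 groups did not overlap for Edf1, and it was the only gene that fell in this cluster. The count of calls moved with single libraries, to 2 without P40 replicate 3 or 4 or P90 replicate 6, to 4 without P40 replicate 6, and to 18, 13, 16 and 22 without P40 replicate 2 or P90 replicates 3, 4 and 5.

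**Figure D5:**
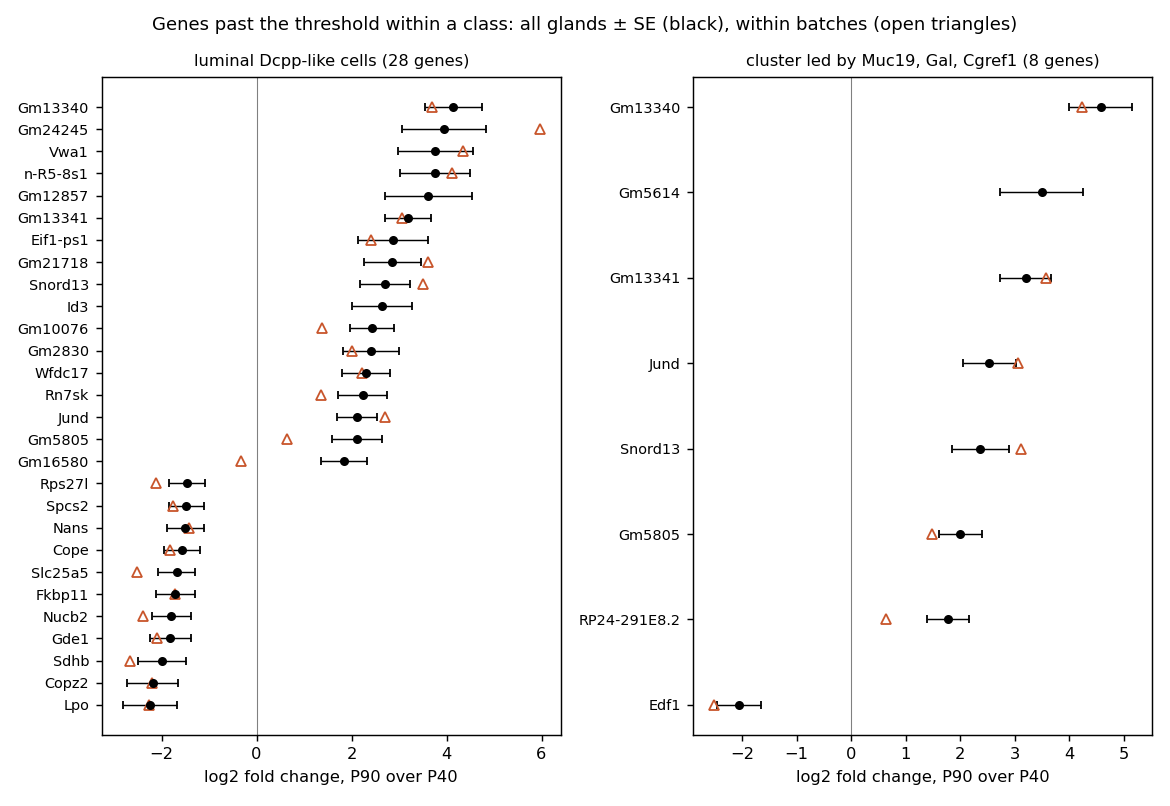
Log2 fold change of P90 over P40 with its SE (black) for each gene called in luminal Dcpp-like cells (left) and in the cluster led by Muc19, Gal and Cgref1 (right), and the value within batches B11 to B13 (open triangles, where it could be fitted). Gm13340 leads both panels with 4.14 and 4.57, and Gm16580 is the only gene whose value within batches lies on the other side of 0 (-0.32).

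Only 2 further genes were called. In acinar-like cells 1 of 2031 genes passed (0.0492%): Mup-ps22, a pseudogene of the major urinary protein family whose reads may be shared with near-identical members and which is itself among the leading genes of these cells, ran from 0.282 over 8.07 to 9.08 CPM in 5 P40 glands and from 0 over 30.9 to 99.3 CPM in 6 P90 glands (log2 fold change 3.503 ± 0.63, adjusted p = 0.0373). The stages overlapped, and no gene passed without P40 replicate 3, 4, 6 or 7 or P90 replicate 1 or 4. In the cluster led by Hp, Ascl3 and Slc4a11 1 of 1454 genes passed (0.0688%). A630073D07Rik ran from 25.3 over 891 to 4032 CPM at P40 and from 16.3 over 29.0 to 276 CPM at P90 (log2 fold change -3.28 ± 0.54, adjusted p = 0.0117). A630073D07Rik also leads the cluster of Smgc-expressing cells, beside the whole-gland values of Smgc above. It lost its call in edgeR without both libraries that go against their sex label (adjusted p = 0.125). Its level was 378, 1556, 891, 2002 and 4032 CPM in the P40 glands with more Xist than Y-linked UMIs. The other P40 glands were at 67.0 and 25.3 CPM. At P90 the former had 120, 108 and 276 CPM and the latter 29.0, 16.3, 16.6 and 25.2 CPM. Sex entered the fit as labelled, and its part in the call was not tested. In this cluster 0 genes passed without P40 replicate 1 alone, 2 without P40 replicate 5 or P90 replicate 3 or 4, and 7 without P90 replicate 7.

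In basal-, Wnt-active tumor- and luminal Clu-like cells edgeR called no gene over all glands. In basal-like cells 0 of 1103 genes (0%) passed, with 123 at an unadjusted p under 0.05 and 19 called by DESeq2. Acta2, the smooth muscle actin of contractile cells and here the gene with the smallest p, ran from 531 over 1086 to 3756 CPM in 7 P40 glands and from 117 over 306 to 588 CPM in 6 P90 glands (log2 fold change -2.26 ± 0.47, adjusted p = 0.113, -2.79 within batches). The basal-like cells also held 3 markers of myoepithelial cells, whose separate cluster at resolution 1.5 had 51 P40 cells and 1 P90 cell, and their part in the value of Acta2 was not tested. Without both libraries that go against their sex label 16 genes passed, 15 higher and 1 lower, and Acta2 was the lower one (adjusted p = 0.0377). Without P40 replicate 2 or 5 alone 6 and 21 genes passed, and 1 without P90 replicate 5. Sparc in the same cells had a log2 fold change of -1.21 ± 0.29 (adjusted p = 0.144), while the basal keratin Krt14 had one of 0.35 ± 0.23. Acta2 and Sparc were chosen after their values were seen. In Wnt-active tumor-like cells 0 of 334 genes (0%) passed, with 13 at an unadjusted p under 0.05 and 0 called by DESeq2. There Axin2 had a log2 fold change of 0.21 ± 0.51, Nkd1 one of 0.76 ± 0.47 and the growth factor Ptn one of 0.05 ± 0.48. In luminal Clu-like cells 0 of 356 (0%) passed, with 6 at an unadjusted p under 0.05 and 2 called by DESeq2, and Clu had a log2 fold change of 0.08 ± 0.47.

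Macrophage and monocyte-like cells, present in all 14 glands, gave 0 calls of 1617 genes (0%), with 90 at an unadjusted p under 0.05 and 1 called by DESeq2. The genes named next were among those with the smallest p, were chosen after their values were seen and shared an adjusted p of 0.544 in edgeR. H2-Q7, a nonclassical MHC class I gene, ran from 126 over 244 to 496 CPM at P40 and from 36.2 over 94.4 to 192 CPM at P90 (log2 fold change -1.42 ± 0.33). Il1a, an alarmin cytokine, and Mki67, a marker of dividing cells, had log2 fold changes of -1.04 ± 0.28 and -1.26 ± 0.34. Cebpb, a transcription factor, went the other way with 2.30 ± 0.57. Interferon-stimulated genes had 8 of 9 negative fold changes in these cells (median -0.72 beside 0.01 over all genes of the class). Genes of EMT and matrix had 6 of 6 positive ones (median 0.72) and tissue-remodeling macrophage genes 8 of 10 (median 0.31). Inflammatory myeloid genes, mostly positive over whole glands, had 7 of 9 negative fold changes in these cells (median -0.26). MHC class II genes had 5 of 6 negative ones (median -0.31) and MHC class I genes 6 of 7 (median -0.32).

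The 7 other classes fitted had no call by edgeR. In striated and granular duct-like cells 0 of 1224 genes (0%) passed, with 100 at an unadjusted p under 0.05 and 11 called by DESeq2. There all 18 oxidative phosphorylation genes had a negative fold change (median -0.50, beside 0.01 over all genes of the class), and duct secretory genes had 10 positive and 8 negative ones (median 0.29). The clusters led by Mucl1, Smgc and n-R5-8s1 gave 0 of 396 (0%), 0 of 1140 (0%) and 0 of 584 genes (0%), with 27, 41 and 22 at an unadjusted p under 0.05 and 1 called by DESeq2 in each. Endothelial-, fibroblast- and T and NK-like cells gave 0 of 680 (0%), 0 of 398 (0%) and 0 of 235 genes (0%), with 37, 14 and 12 at an unadjusted p under 0.05 and 0 called by DESeq2. In the cluster led by Hp, Ascl3 and Slc4a11 all 18 oxidative phosphorylation genes were negative (median -0.43), and in macrophage and monocyte-like cells 12 of 16 (median -0.09). In basal- and acinar-like cells and the Smgc cluster 17, 16 and 16 of 18 were negative (medians -0.39, -0.34 and -0.25). In Wnt-active tumor-, luminal Clu- and endothelial-like cells these were 8 of 8, 8 of 11 and 7 of 12. The n-R5-8s1, Mucl1 and Muc19 clusters had 13, 12 and 12 of 16, T and NK-like cells 2 of 3 and fibroblast-like cells 1 of 3. Lcn2 in the Hp, Ascl3 and Slc4a11 cluster was close to the threshold, from 0 over 48.7 to 101 CPM at P40 and from 96.0 over 158 to 332 CPM at P90 (log2 fold change 2.51 ± 0.54, adjusted p = 0.0564), and was chosen after its values were seen.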

How the data were processed

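The authors sorted living cells of each submandibular gland, fixed them in methanol and made 1 Drop-seq library a gland. Per the labels and methods, reads were processed with the Drop-seq tools and STAR against mm10 with Cre and EYFP added, and barcodes were kept up to the knee. The deposited values are raw counts of UMIs per gene and barcode. The submitters' processing notes also name featureCounts, which the study's methods used for bulk libraries, not used here.

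From the deposited counts, barcodes with at least 100 genes and under 15% mitochondrial UMIs were kept, and their UMIs were added up within a gland, or within a class of a gland where it had at least 10 cells in at least 4 glands of each stage. Stage was tested with edgeR 4.0.16 (R 4.3.3), filterByExpr, TMM and the quasi-likelihood test with sex as labelled as covariate, with Benjamini-Hochberg adjustment across every gene of a fit, and a threshold of 0.05. DESeq2 1.42.0 was an alternative. P-values measure the spread between glands of 1 stage, each labelled only as a separate sample.

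Cells were clustered with scanpy 1.11.5 (2000 variable genes, 30 components, 20 neighbors, Leiden resolution 1). A cluster was named from at least 3 markers that were at least 2 times as high as elsewhere and found in at least 10% of its cells. The rules that left a cluster unnamed (no own marker among its top 10 genes, or a tie) were set after the clusters were seen. A cluster also stayed unnamed where another list had more markers among its top 10 genes. This rule left the Hp, Ascl3 and Slc4a11 cluster (1209 cells) unnamed, though it held 7 luminal Clu markers, against 6 in the luminal Clu-like class. Scrublet called 81 of 12603 cells (0.643%), which were kept in the main result. Shares were compared by a two-sided exact permutation test of the difference of means, adjusted over 18 classes, and by a binomial mixed model (lme4 1.1.37). Scripts were tested on simulated data.

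Named genes were the 10 with the smallest p in each direction, up to 4 members of each list with the highest level, the targeted genes, and in classes the 3 called genes with the smallest p in each direction. List members with an unadjusted p under 0.05 and Axin2, Dkk4, Bmp2, Uqcrb and further called class genes were named after their values were seen. The members, the gene lists and the markers were chosen with earlier results of these data known.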

Additional observations from a re-analysis of the deposited data

Results flagged for a closer look

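In 13 of 86 groups of 7 glands looked at, 1 gland lay far from the others, with a gap to its nearest neighbor of more than Dixon's critical share of the group's range, where chance flags about 1 in 20 groups. At P40, replicate 2 had 10.28% T and NK-like cells, 3.521% cells of the cluster led by Olfr558, Mustn1 and Rgs4, and 44.86 CPM of Cnn1. Replicate 3 had 35.31% acinar-like cells, replicate 5 had 13.6% cells of the n-R5-8s1 cluster and replicate 7 had 11.29% cells of the Muc19 cluster. At P90, replicate 6 had 11.7% cells of the Muc19 cluster and 9.61% luminal Dcpp-like cells. Replicate 7 had 4.412% plasma cell-like cells, 1.527 CPM of Clic6 and 14 CPM of Cirbp, and replicate 4 had 1.246 CPM of Cox7a1 and 1.246 CPM of Cre.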

How the results depend on the processing

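Over whole glands, DESeq2 called 3 genes and edgeR without a filter on low counts called 232, 207 higher and 25 lower at P90, of which 133 of the higher had clone names. Every other alternative and leaving out any 1 gland gave 0. Within classes the 38 calls became 139 with DESeq2, 15 without sex as covariate, 485 without a filter, and 12 to 62 with 1 gland left out. The 28 calls in luminal Dcpp-like cells became 47 with DESeq2, 5 without sex, 16 without both libraries that go against their sex label, 48 without a filter and 9 to 35 with 1 gland left out. The 8 calls in the Muc19 cluster became 33, 10, 22, 13 and 2 to 22 in the same order. The share of basal-like cells among the 3 classes compared with each other differed by -9.017 percentage points at resolution 0.6, -20.99 at 1.5, -22.22 without both libraries, -15.15 without glands under 50 such cells, -26.74 within batches and -27.62 to -20.53 with 1 gland left out. None of the former 5 passed. Luminal Clu-like cells passed with thinned cells (24.82) and ran from 7.401 to 13.28 with 1 gland left out, and Wnt-active tumor-like cells from 7.243 to 15.89. Shares of all cells gave 0 calls throughout. Within batches the sign changed for Lgals3 (-0.043), Cxcl2 (-0.14), Cxcl1 (-0.62) and, in luminal Dcpp-like cells, Gm16580 (-0.32). A sign change was counted where the first value was at least 1 SE from 0 or called. The cause of these changes was not tested.

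Equal replicate numbers did not mark pairs: correlations of equal numbers ran from -0.354 to 0.544 and 2 of 7 glands matched their own number best. With the replicate block, 0 of 12370 genes passed over whole glands (737 at an unadjusted p under 0.05), 20 in luminal Dcpp-like cells and 12 in the Muc19 cluster. Clustering without genes called by stage over whole glands was not run, since edgeR called none there (DESeq2 called 3). Glands with few UMIs or few cells of a class limit what could be detected.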

Other observations

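Cebpb and Jund, chosen after their values were seen, had positive fold changes in every class where they were tested. Cebpb, a transcription factor of myeloid and epithelial cells, had one in 10 of 10 classes where it was tested (2.10 to 4.62, 0 called by edgeR). Over whole glands it ran from 3.49 over 12.3 to 274 CPM at P40 and from 4.84 over 208 to 600 CPM at P90 (log2 fold change 2.60 ± 0.77, adjusted p = 0.832, 2.88 within batches). Jund had one in 15 of 15 classes (0.24 to 2.53), of which 2 were called, and the call in luminal Dcpp-like cells was lost without both libraries that go against their sex label (adjusted p = 0.0854). Jund ran over whole glands from 63.0 over 144 to 638 CPM at P40 and from 68.5 over 702 to 1523 CPM at P90. The immediate early and heat shock list that holds Jund went both ways, with 8 positive and 7 negative fold changes over whole glands (median 0.0025) and 11 of 13 negative in macrophage and monocyte-like cells. The classes came from the same libraries, so their values are not independent, and the stages overlapped for both genes.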
